A study of Rattus norvegicus with 11 samples.

Results

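Expression of 6 genes of macrophages and inflammation was followed in rat heart RNA: Ccl2, Il1b, Cd68, Cd74, Spp1 and Lgals3. They were chosen by their Ensembl identifiers, in that order ENSRNOG00000007159, ENSRNOG00000004649, ENSRNOG00000037563, ENSRNOG00000018735, ENSRNOG00000043451 and ENSRNOG00000010645, whatever their levels. All 6 were among the 32883 gene identifiers of the count table, and all 6 were among the 14979 with enough counts to be tested. Cardiac RNA of Sprague Dawley rats had been sequenced in 11 libraries, 1 per numbered sample. The control group held 2 libraries (115 and 95), and its labels name no agent. Isoproterenol, an agonist of beta-adrenergic receptors that overloads the heart, was given to the rats of all other groups at a daily 5 mg/kg over 10 days. Libraries 79, 98 and 119 form the isoproterenol group, with no further treatment in the labels. Libraries 78, 133 and 143 form the canagliflozin group, which also received a daily 3 mg/kg of canagliflozin, an inhibitor of the renal glucose transporter SGLT2, over 4 weeks. Libraries 103, 113 and 57 form the exercise group, trained 60 min a day over 4 weeks. The series title pairs canagliflozin with aerobic exercise, but no label of this last group mentions the drug, so whether these rats received it cannot be told. Neither the part of the heart nor the age and sex of the rats is given in the labels used here.

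When heart muscle is injured, stressed cells release CCL2, which draws monocytes from the blood through the receptor CCR2, and these cells become macrophages beside those that live in the tissue. Activated macrophages make interleukin-1 beta (Il1b), a cytokine that is cut to its active form by the inflammasome. They carry CD68, a glycoprotein of their lysosomes, and CD74, the chaperone that guides MHC class II molecules in cells that present antigen. Osteopontin (Spp1) and galectin-3 (Lgals3) are secreted by macrophages in scarring tissue and bind matrix proteins and sugars, and both are known from fibrosis of the heart. None of these genes is made by macrophages alone. In whole tissue, fewer cells of a type and less RNA per cell cannot be told apart.

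Upstream sequence of the genes is shown because Cd68 and Spp1, described below, varied together across libraries. Il1b, set beside them, varied with Ccl2 and also with Spp1. Of the 6 genes, 4 had an entry by symbol in the RefSeq promoter table (build GRCr8): Il1b, Cd68, Cd74 and Spp1. The 250 bases before the annotated start are given 5′ to 3′ on the strand of the gene, and capitals mark matches on either strand to an AP-1 site (TGANTCA) or a PU.1 core (GAGGAA). AP-1 is a stress-responsive transcription factor, and PU.1 is a factor of macrophages and other myeloid cells.
Cd68 (chr10:54882442-54882691, minus strand): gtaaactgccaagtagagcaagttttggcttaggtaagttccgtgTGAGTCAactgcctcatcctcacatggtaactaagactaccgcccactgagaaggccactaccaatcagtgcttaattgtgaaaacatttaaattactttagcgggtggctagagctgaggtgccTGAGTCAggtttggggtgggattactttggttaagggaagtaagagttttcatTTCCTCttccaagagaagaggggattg
Spp1 (chr14:5619805-5620054, minus strand): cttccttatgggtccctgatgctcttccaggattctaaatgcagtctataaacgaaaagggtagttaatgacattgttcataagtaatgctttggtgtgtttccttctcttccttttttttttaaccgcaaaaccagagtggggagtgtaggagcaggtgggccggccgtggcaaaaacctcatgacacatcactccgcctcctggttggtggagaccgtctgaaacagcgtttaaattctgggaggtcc
Il1b (chr3:137036582-137036831, minus strand): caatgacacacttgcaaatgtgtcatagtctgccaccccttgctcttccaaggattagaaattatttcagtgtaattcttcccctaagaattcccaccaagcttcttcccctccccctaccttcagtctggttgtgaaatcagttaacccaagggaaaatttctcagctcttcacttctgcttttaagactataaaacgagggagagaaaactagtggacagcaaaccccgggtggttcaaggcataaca

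The Cd68 window held 2 AP-1 matches, starting 205 and 80 bases before the start, and 1 PU.1 match, on the opposite strand, 27 bases before it. The windows of Spp1 and Il1b held no match to either. Among 33469 rat promoters of the same length, 6.34% held the AP-1 letters and 23.3% the PU.1 letters. The NF-kB consensus was found in 3.54% of these promoters and the CCAAT box in 34.0%. Of the 4 genes, the Cd74 window held 2 overlapping matches to the NF-kB consensus, 1 on each strand, 1 PU.1 match and 1 CCAAT box, and the Cd68 window held 1 CCAAT box. A match is a run of letters and not a measured binding site.

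Total counts ranged from 14742164 to 25034831 per library. Control library 95 stood apart over all genes: fewer genes were detected in it (14692, where the other 10 libraries had 16916 to 17703), the 10 most abundant genes held a larger share of the counts (42.5%, elsewhere 22.6 to 34.3%), and the TMM factor, which corrects for such composition, was smaller (0.568, elsewhere 0.910 to 1.23). It is 1 of only 2 controls, so each fold change against control is also given without it. Its small TMM factor raises every TMM-scaled level of this library, so levels that rest on it are also given scaled by library totals alone. Levels are CPM, counts divided by the TMM-scaled total of the library and multiplied by 1e6. The labels do not say whether each library is a separate animal, and p-values reflect only how far these libraries vary. The count table pairs no identifier with a symbol, so the heart identity of the tissue and markers of other cell types were not analysed here.

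None of the 6 genes was near the limit of detection. The lowest of the 66 counts was 43, for Il1b in control library 115, which is 2.76 CPM with an exact 95% Poisson interval of 1.999 to 3.72 CPM. A count of 0 in that library would have allowed up to 3 counts, or 0.193 CPM. The next lowest was Spp1 in canagliflozin library 78, with 44 counts. Intervals from counts cover counting error only. Spread between libraries, and not counting error, set the precision of the comparisons below.

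Levels can be compared between genes only per length, for which the deposited FPKM values were used. Their medians over the 11 libraries were 316.7 FPKM for Cd74, 50.6 for Lgals3, 14.8 for Spp1, 12.4 for Ccl2, 12.2 for Cd68 and 3.12 for Il1b. Cd74 lay above 98.2% of tested genes by its median and Lgals3 above 91.2%. Il1b lay above 40.3%. The places of Cd74 and Il1b hold for medians and not in every library. Lgals3 exceeded Cd74 in control library 95 (96.5 against 58.9 FPKM) and in isoproterenol library 98 (125.4 against 122.9 FPKM). In canagliflozin library 78 Spp1 was below Il1b (0.954 against 1.785 FPKM). Spp1, Ccl2 and Cd68 overlapped across libraries, with ranges of 0.954 to 103.5, 4.09 to 34.0 and 4.56 to 28.3 FPKM, so their order is not resolved.

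**Figure D1:**
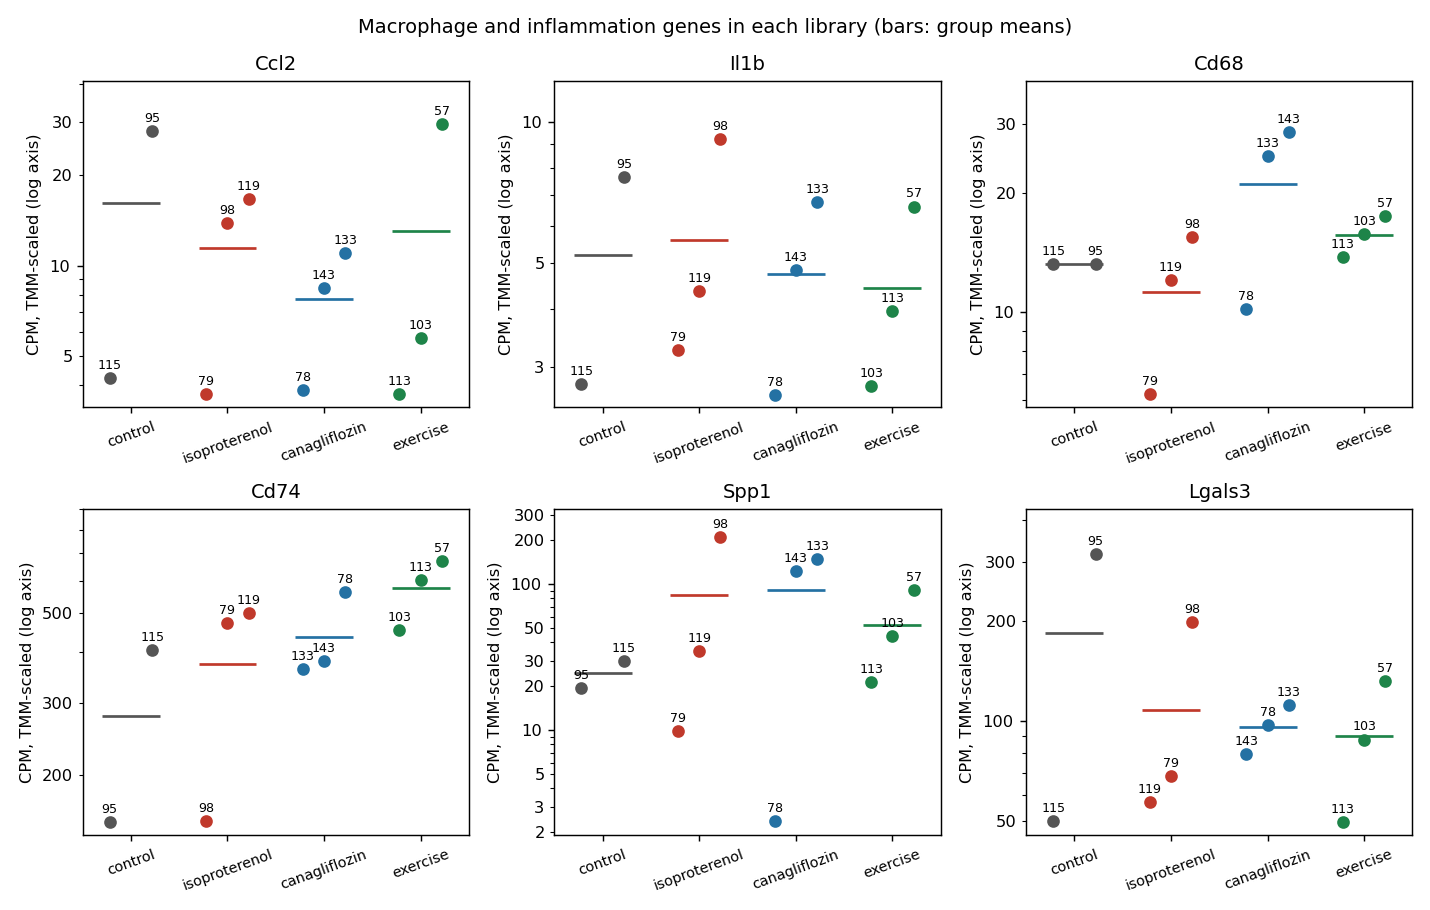
TMM-scaled CPM of each gene on a log axis, 1 point per library labelled with its number, by group; the horizontal bars are group means. Within the isoproterenol group library 98 is the highest for Il1b, Cd68, Spp1 and Lgals3 and the lowest for Cd74, and control library 95 is above control library 115 for Ccl2, Il1b and Lgals3, by less when counts are scaled by library totals alone.

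Ccl2, the monocyte-attracting chemokine, was high in 1 or 2 libraries of each group and low in the others. It was at 4.24 and 28.0 CPM in control libraries 115 and 95. It was at 3.75, 13.8 and 16.6 CPM in isoproterenol libraries 79, 98 and 119, and at 3.87, 11.02 and 8.43 CPM in canagliflozin libraries 78, 133 and 143. In exercise libraries 103, 113 and 57 it was at 5.75, 3.75 and 29.6 CPM. Every group had 1 library between 3.75 and 4.24 CPM, and the highest library, 57, was 1 of the exercise group. Library 95 was second on the TMM scale only: by library totals it was at 15.9, below libraries 119 (16.9) and 98 (16.3). Group means were 16.1 ± 16.8 CPM (SD, n = 2) in control, 11.4 ± 6.78 (n = 3) with isoproterenol, 7.78 ± 3.62 (n = 3) with canagliflozin and 13.0 ± 14.4 (n = 3) with exercise. The ranges of all groups overlapped, so no order of the groups is resolved.

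Il1b, the inflammasome cytokine, had the lowest median level of the 6 genes. Control libraries 115 and 95 held 2.76 and 7.64 CPM. Isoproterenol libraries 79, 98 and 119 held 3.27, 9.21 and 4.36 CPM, and canagliflozin libraries 78, 133 and 143 held 2.62, 6.76 and 4.83 CPM. The exercise libraries 103, 113 and 57 held 2.72, 3.96 and 6.61 CPM. All groups overlapped. By library totals the control values were closer, 2.85 and 4.34. The highest library, 98, was 3.52-fold above the lowest, 78. Group means ran from 4.43 ± 1.99 CPM (SD, n = 3) with exercise to 5.62 ± 3.16 (n = 3) with isoproterenol, closer together than the libraries within any group.

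Cd68, the lysosomal macrophage marker, was highest in canagliflozin libraries 133 and 143. They held 24.8 and 28.5 CPM, while library 78 of the same group held 10.2 CPM. Isoproterenol libraries 79, 98 and 119 held 6.22, 15.5 and 12.1 CPM. Exercise libraries 103, 113 and 57 held 15.7, 13.8 and 17.5 CPM, a narrow range that lay between most canagliflozin and most isoproterenol values. Control libraries 115 and 95 held 13.23 and 13.25 CPM. That near equality depends on the scaling: counts divided by library totals alone gave 13.7 and 7.53 on the same scale. Group means were 21.2 ± 9.67 CPM (SD, n = 3) with canagliflozin, 15.7 ± 1.85 (n = 3) with exercise, 13.2 ± 0.00964 (n = 2) in control and 11.3 ± 4.69 (n = 3) with isoproterenol.

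Cd74, the MHC class II chaperone, had the highest median level of the set and was low in 2 libraries of different groups. Control library 95 held 153 CPM and isoproterenol library 98 held 154 CPM. The other 9 libraries lay between 363 CPM (canagliflozin library 133) and 669.6 CPM (exercise library 57). By library totals library 95 was at 87.2 and library 98 at 182, so their near equality depends on the scaling. The other 9 were then at 419 or more. Control library 115 was at 405.9 CPM, isoproterenol libraries 79 and 119 at 471.5 and 498 CPM, and canagliflozin libraries 78 and 143 at 563 and 380.3 CPM. Exercise libraries 103 and 113 were at 454 and 604 CPM. Group means were 576 ± 110.0 CPM (SD, n = 3) with exercise, 436 ± 111 (n = 3) with canagliflozin, 375 ± 191 (n = 3) with isoproterenol and 279.6 ± 179 (n = 2) in control. The ranges of neighbours in this order overlapped.

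Spp1, osteopontin, varied more than any of the other 5 genes, over an 87.6-fold range. It was at 210 CPM in isoproterenol library 98 and at 2.40 CPM in canagliflozin library 78. The other isoproterenol libraries, 79 and 119, were at 9.91 and 34.8 CPM, and the other canagliflozin libraries, 133 and 143, at 149.6 and 124 CPM. Each of these groups thus held libraries above and libraries below all control and exercise libraries. Exercise libraries 103, 113 and 57 were at 44.1, 21.4 and 91.3 CPM, and control libraries 115 and 95 at 29.8 and 19.3 CPM. Libraries 98 and 133 held 48.8% of the summed CPM of all 11. Group means were 92.0 ± 78.7 CPM (SD, n = 3) with canagliflozin, 85.0 ± 109 (n = 3) with isoproterenol, 52.3 ± 35.7 (n = 3) with exercise and 24.6 ± 7.41 (n = 2) in control.

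Lgals3, galectin-3, was highest in the 2 libraries where Cd74 was lowest. Control library 95 held 316 CPM and isoproterenol library 98 held 198 CPM. The remaining control library, 115, held 50.04 CPM, and isoproterenol libraries 79 and 119 held 68.3 and 57.3 CPM. Canagliflozin libraries 78, 133 and 143 held 97.2, 112 and 79.5 CPM, and exercise libraries 103, 113 and 57 held 88.0, 49.9 and 132 CPM. Group means were 183 ± 188 CPM (SD, n = 2) in control, 108 ± 78.4 (n = 3) with isoproterenol, 96.2 ± 16.2 (n = 3) with canagliflozin and 90.01 ± 41.2 (n = 3) with exercise. The control and isoproterenol means each rested on 1 library. By library totals library 95 was at 180 and library 98 at 234, still above the other 9, which reached at most 132.

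**Figure D2:**
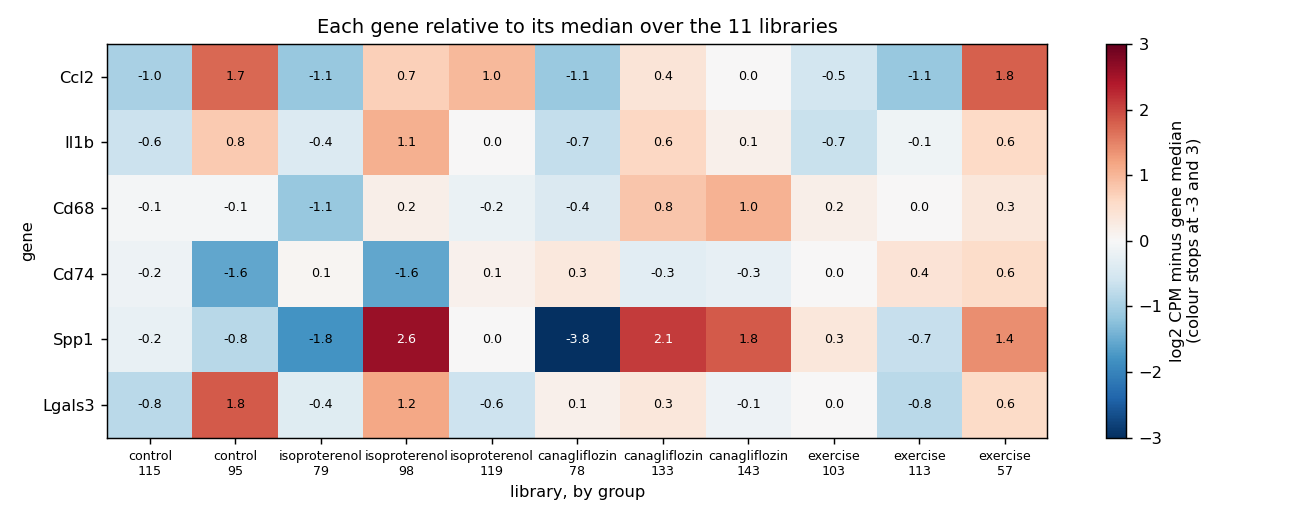
Log2 CPM of each gene (rows) in each library (columns, by group) minus the median of that gene over the 11 libraries; red is above the median and blue below, and colours stop at -3 and 3. Spp1 spans from -3.8 in canagliflozin library 78 to 2.6 in isoproterenol library 98, while Cd74 departs by -1.6 in libraries 95 and 98.

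The spread between libraries of the same group was measured as a pooled standard deviation of log2 CPM. Its median over all tested genes was 0.549. Spp1 had 2.21, above 99.3% of tested genes, and Ccl2 had 1.33, above 91.2%. Lgals3 had 0.965 and Il1b 0.744, above 79.3% and 66.2% of tested genes. Cd74 had 0.678 and Cd68 0.566, above 61.7% and 51.6%. Spread depends on level, so each gene was also set against the 1000 tested genes nearest to it in mean level. The median spread of these neighbours was 0.601 for Il1b, 0.387 for Spp1 and 0.527 for Cd74, the most abundant by median. Spp1 then lay above 99.8%, Ccl2 above 92.8% and Lgals3 above 91.8%, and the other 3 genes above 63.5 to 68.5%. Without control library 95 the value was 2.39 for Spp1 and 1.20 for Ccl2, above 99.8% and 94.5% of genes, and it was 0.706 for Lgals3, above 76.1%.

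**Figure D3:**
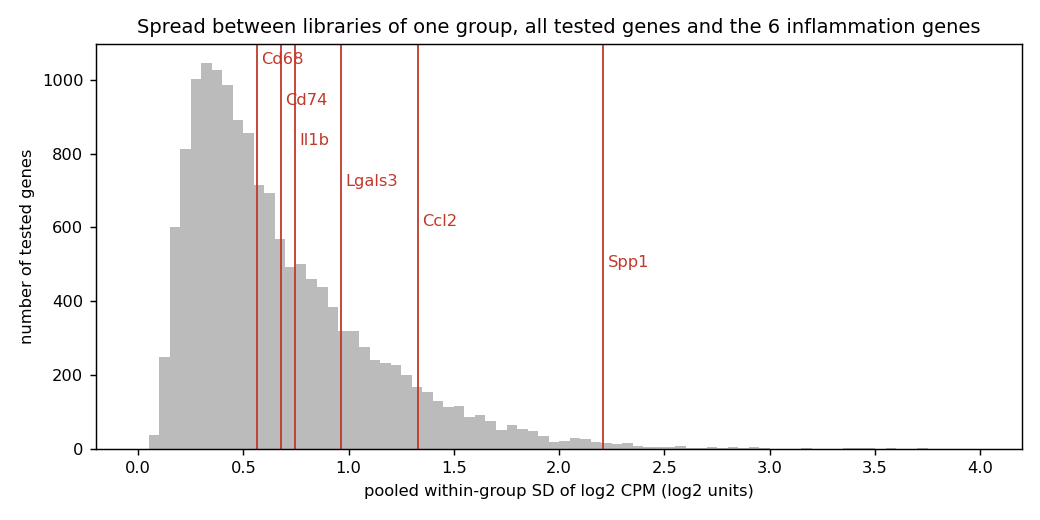
Histogram of the pooled within-group standard deviation of log2 CPM over the 14979 tested genes, with a vertical line for each of the 6 genes. Spp1, at 2.21, lies in the far right tail, Ccl2 at 1.33 in the upper tail, and Cd68 at 0.566 close to the median of 0.549.

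Isoproterenol was compared with control to ask what the heart failure model does to these genes. In the edgeR quasi-likelihood test over all genes 0 of the 6 were called at an adjusted p under 0.05, and the background was 0% of 14979 tested genes. An unadjusted p under 0.05 was met by 0 of the 6 genes and 5.21% of tested genes. Groups overlapped for all 6 genes, where 13.4% of tested genes had groups that did not. Directions were mixed: Spp1, Cd74 and Il1b had positive log2 fold changes and Lgals3, Ccl2 and Cd68 negative ones. The median was -0.05 over the 6 genes and 0.07 over all tested genes. The largest was Spp1, with a log2 fold change of 1.79 (SE 1.48, 95% interval -1.49 to 5.07, edgeR adjusted p = 0.854), which went to -0.14 without isoproterenol library 98. Lgals3 had -0.76 (SE 0.735, adjusted p = 0.86) and Ccl2 -0.49 (SE 0.996, adjusted p = 0.935), and without control library 95 these became 1.12 and 1.43. Cd74 had 0.42 (SE 0.565) and was -0.11 without that library. Il1b had 0.13 and Cd68 -0.23, and without it these were 1.03 and -0.22, and Spp1 was 1.53. The share with an unadjusted p under 0.05 depended on the controls: the count of 780 tested genes was 148 with library 95 left out and 5360 with library 115 left out.

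Canagliflozin after isoproterenol was compared with isoproterenol alone. Again 0 of the 6 genes were called by edgeR, against 0% of tested genes, and the groups overlapped for all 6, against 9.48% of tested genes that did not overlap. The gene with the smallest p was Cd68, whose mean rested on libraries 133 and 143. Its log2 fold change was 0.91 (SE 0.412, 95% interval 0.00 to 1.82), with an unadjusted edgeR p of 0.0509 and an adjusted p of 0.999. An unadjusted p under 0.05 was met by 0 of the 6 genes and 3.3% of tested genes. For Cd68 that side of 0.05 was not stable: in 5 of 17 alternatives its unadjusted p was under 0.05, namely DESeq2 (0.0358), edgeR with DESeq2 size factors (0.0451), edgeR without the low-count filter (0.0426), without isoproterenol library 98 (0.0257) and without canagliflozin library 78 (0.00626). In the others it reached up to 0.187, and the adjusted p was 0.823 or more in all 17. The Cd68 value stayed positive, between 0.62 and 1.24, whichever library was left out. The other 5 genes had log2 fold changes between -0.55 (Ccl2) and 0.22 (Cd74), with adjusted p = 0.999 for each. Spp1 had 0.12 with a 95% interval of -2.62 to 2.85, which holds changes of more than 4-fold in either direction.

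Exercise after isoproterenol was compared with isoproterenol alone in the same fit. There were 0 of 6 genes called by edgeR against 0% of tested genes, and 0 of 6 with an unadjusted p under 0.05 against 1.48%. Groups overlapped for all 6, where 8.61% of tested genes had groups that did not. Cd74 had a log2 fold change of 0.62 (SE 0.502, 95% interval -0.49 to 1.73) and Cd68 0.48 (SE 0.41), each with an edgeR adjusted p of 1. Without isoproterenol library 98, the library low in Cd74, the Cd74 value was 0.25. Spp1 had -0.70 (SE 1.24), which became 1.23 without the same library. Ccl2 had 0.19 (SE 0.894), which became -1.27 without exercise library 57. Il1b had -0.34 and Lgals3 -0.26.

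The exercise and canagliflozin groups were set against each other, which tests directly whether the treated groups differed. edgeR called 0 of 6 genes, against 0% of tested genes, with adjusted p = 0.999 for each, and groups overlapped for all 6 against 14.5% of tested genes that did not. None of the 6 had an unadjusted p under 0.05, against 2.42% of tested genes. Spp1 had a log2 fold change of -0.82 (SE 1.24) and Cd68 -0.43 (SE 0.409), lower with exercise. With 1 library left out these ran from -1.49 (without exercise library 57) to -0.28 (without canagliflozin library 133) and from -0.77 (without canagliflozin library 78) to -0.16 (without canagliflozin library 143). Ccl2 had 0.74 (SE 0.9) and Cd74 0.40 (SE 0.501), higher with exercise. Without exercise library 57 the Ccl2 value was -0.72. Il1b and Lgals3 each had -0.10. Testing the 3 groups that received isoproterenol together, for a difference of any kind, called 0% of tested genes and gave an edgeR adjusted p of 1 for each of the 6 genes, with unadjusted p from 0.135 (Cd68) to 0.923 (Lgals3), where 1.9% of tested genes had one under 0.05.

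Each treated group was also compared with control, and both comparisons share the 2 control libraries with the one for isoproterenol. For canagliflozin against control, edgeR called 0 of 6 genes against 0% of tested genes, and 26.3% of tested genes but none of the 6 had groups that did not overlap. An unadjusted p under 0.05 was met by 0 of the 6 and 14.4% of tested genes. That count of 2162 genes was 397 with library 95 left out, 6329 with library 115 left out and 757 in a fit of the canagliflozin and control libraries alone. Spp1 had a log2 fold change of 1.90 (SE 1.48, edgeR adjusted p = 0.527) and Cd68 0.68 (SE 0.468, adjusted p = 0.48). Lgals3 had -0.93 (SE 0.734, adjusted p = 0.532) and Ccl2 -1.04 (SE 0.993, adjusted p = 0.601), which became 0.94 and 0.88 without control library 95. Cd74 had 0.64, which went to 0.10 without that library, and Il1b had -0.12, which went to 0.78. Spp1 was 1.62 and Cd68 0.68 without it. Ccl2 has a short gene model of 835 bases, and the 1000 tested genes nearest to it in length had a median log2 fold change of -0.54 here, where the median of all tested genes was 0.08. For isoproterenol against control these medians were -0.38 and 0.07, and for exercise against control they were -0.25 and 0.06. The part of gene length in the Ccl2 values was not tested.

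For exercise against control, edgeR called 0 of 6 genes against 0% of tested genes, and 0 of 6 had an unadjusted p under 0.05 against 4.85%. That count of 727 genes was 117 with library 95 left out and 5477 with library 115 left out. Groups did not overlap for 2 of the 6 genes, Cd74 and Cd68, both higher with exercise, where 17.4% of tested genes did not overlap in either direction and 10.3% were higher with no overlap. A count of 2 in 6 is too small to set the genes apart from that background. Cd74 was at 454, 604 and 669.6 CPM with exercise and at 406 and 153 CPM in control. Its log2 fold change was 1.04 (SE 0.578, 95% interval -0.24 to 2.33), with an unadjusted p of 0.101 and an edgeR adjusted p of 0.852. Leaving out control library 95 gave 0.52, and leaving out control library 115 gave 1.93. For Cd68 the gap was narrow, from 13.25 CPM in the higher control to 13.8 CPM in the lowest exercise library, and the log2 fold change was 0.24 (SE 0.462). Lgals3 had -1.02 (SE 0.734, adjusted p = 0.866), which became 0.86 without control library 95, and Spp1 had 1.09 (SE 1.43), which was 0.83 without that control and 0.41 without exercise library 57. Ccl2 had -0.30 and Il1b -0.22, which became 1.64 and 0.70 without control library 95, while Cd68 was 0.26.

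**Figure D4:**
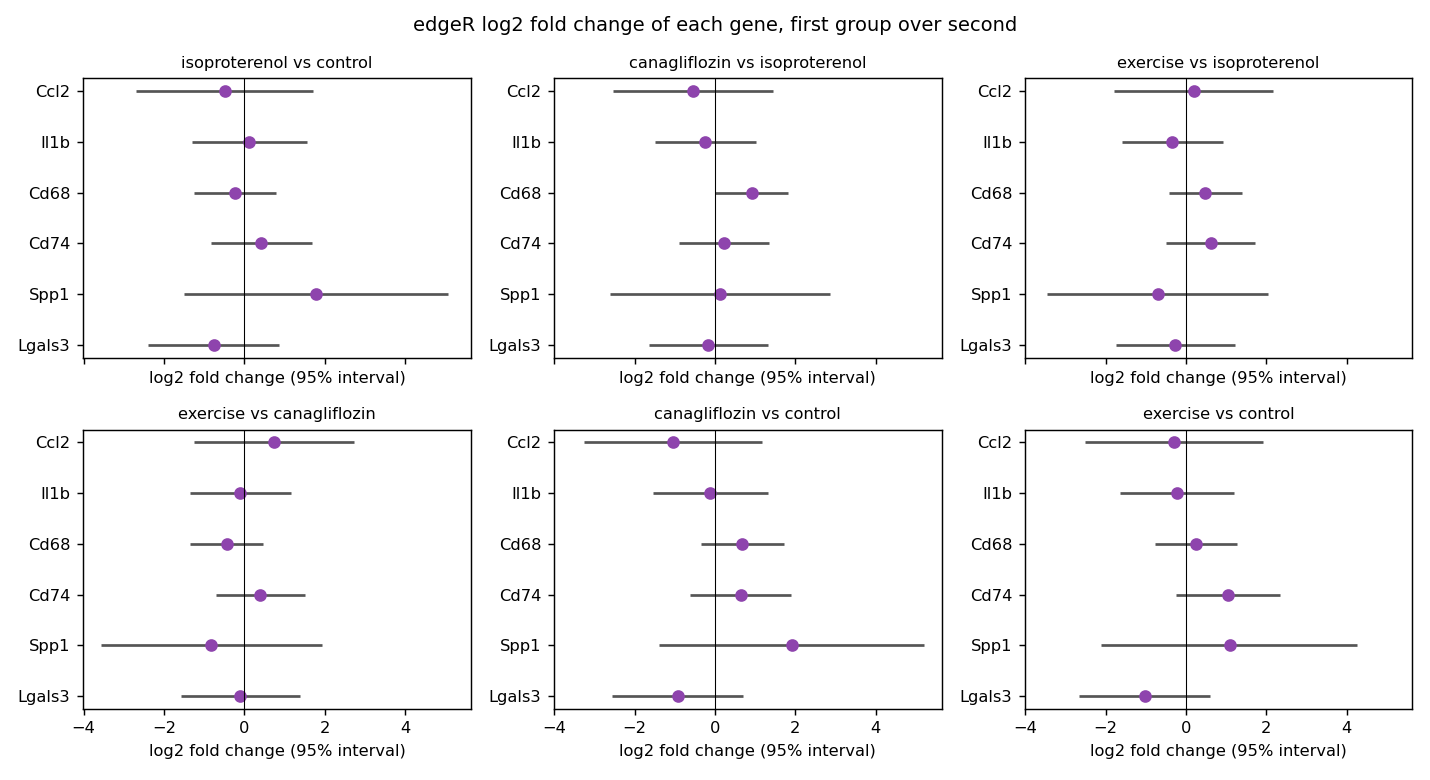
edgeR log2 fold change of each gene, first group named over the second, with its 95% interval as a horizontal line, for the 6 pairs of groups. Every interval reaches or crosses 0, and the Spp1 intervals, such as -1.49 to 5.07 for isoproterenol against control, are the widest.

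Across libraries the genes varied together in part. Correlations of log2 CPM were computed for all 15 pairs over the 11 libraries, each with a permutation test of 100000 resamples and Benjamini-Hochberg adjustment over the 15 pairs. The 10 pairs without Cd74 all had a positive Pearson's r, from 0.176 to 0.804, and the 5 pairs with Cd74 all had a negative one, from -0.74 to -0.136. With counts scaled by library totals alone, the pair Cd68 and Cd74 had 0.278 in place of -0.136. Without libraries 95 and 98, r with Cd74 was 0.105 for Lgals3, -0.00459 for Il1b and -0.402 for Spp1. Without control library 95 alone it was -0.161 for Ccl2, -0.539 for Il1b, -0.549 for Lgals3, -0.229 for Cd68 and -0.555 for Spp1.

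Ccl2 and Il1b, the chemokine and the cytokine, had the highest r of the set over all libraries with TMM scaling. It was 0.804 (permutation p = 0.0047, adjusted p = 0.0448), with Spearman's rho of 0.709 (permutation p = 0.0177, adjusted p = 0.133). Without the 2 libraries farthest from the Ccl2 median, 57 and 95, r was 0.755. Both genes were above their medians in libraries 57, 95, 98 and 133 and below them in 78, 79, 103, 113 and 115. Without control library 95 r was 0.765 (permutation p = 0.0116, adjusted p = 0.0614), so the adjusted value then missed 0.05. By library totals r was 0.736 (adjusted permutation p = 0.0596), and library 95 was then just below the Il1b median. Il1b also varied with Spp1, with an r of 0.661 (permutation p = 0.0256, adjusted p = 0.064). In both of these other settings that pair had the higher r: 0.794 without control library 95 and 0.824 by library totals.

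Cd68 and Spp1 had an r of 0.755 (permutation p = 0.00877, adjusted p = 0.0448) and a rho of 0.809 (permutation p = 0.00384, adjusted p = 0.0576). Without libraries 79 and 143, the farthest from the Cd68 median, r was 0.795. It was also 0.755 without control library 95 (permutation p = 0.0123, adjusted p = 0.0614). Taken as deviations from group means, r was 0.956, so the relation held among libraries of the same group. In canagliflozin, libraries 133 and 143 were high and library 78 low for both genes. In isoproterenol, library 98 was high and library 79 low for both. The size of the swing differed, since Cd68 varied 4.58-fold and Spp1 87.6-fold over the same libraries.

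The 3 libraries with the most Spp1, 98, 133 and 143, were also those with the 3 highest TMM factors, 1.178, 1.182 and 1.232. Over the 11 libraries Spp1 and the log2 TMM factor had an r of 0.475 (permutation p = 0.144, adjusted p = 0.507 over 18 relations of the 6 genes with 3 library measures) and a rho of 0.773 (permutation p = 0.00714, adjusted p = 0.127). For Cd68 r was 0.436 (permutation p = 0.189, adjusted p = 0.507) and rho was 0.727 (permutation p = 0.0141, adjusted p = 0.127). Without the libraries farthest from the median TMM factor, 95 and 143, r was 0.701 for Spp1 and 0.742 for Cd68. Without library 95 alone it was 0.727 (permutation p = 0.0163, adjusted p = 0.146) and 0.816 (permutation p = 0.00299, adjusted p = 0.0538). Total counts had an r of 0.107 with Spp1 (permutation p = 0.755) and 0.061 with Cd68 (permutation p = 0.861), and a rho of 0.136 and 0.109. The part of library composition in the joint movement of Cd68 and Spp1 was not tested.

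Cd74 and Lgals3 went in opposite directions, with an r of -0.74 (permutation p = 0.0119, adjusted p = 0.0448) and a rho of -0.464 (permutation p = 0.156, adjusted p = 0.26). The relation rested on libraries 95 and 98: without them r was 0.105. Il1b and Lgals3 had an r of 0.728 (permutation p = 0.00983, adjusted p = 0.0448) and a rho of 0.609 (permutation p = 0.0523, adjusted p = 0.17), and without libraries 95 and 98 r was 0.476. Ccl2 and Lgals3 had 0.688 (permutation p = 0.018, adjusted p = 0.0541), with a rho of 0.645 (permutation p = 0.0376, adjusted p = 0.17). Of the 15 pairs, 4 had an adjusted p under 0.05 for r, 0 had one for rho, and 0 had one for r without control library 95. All 4 pairs also missed 0.05 when any 1 of libraries 115, 79, 133, 143, 103 and 113 was left out, so these calls lie at the edge of the threshold, while their r kept its sign. Other settings added pairs with an adjusted permutation p under 0.05. Without exercise library 57 these were Ccl2 and Cd74 (0.0408), Ccl2 and Lgals3 (0.0455) and Il1b and Cd74 (0.0325). Without library 119 or library 78 Ccl2 and Lgals3 was added, and by library totals Il1b and Spp1 (0.0197). On deviations from group means r was 0.697 for Ccl2 and Lgals3 and 0.665 for Il1b and Cd68. It was -0.707 for Il1b and Cd74 and 0.685 for Il1b and Spp1. The relation of Il1b and Cd74 also rested on libraries 95 and 98. On log2 CPM its r was -0.629 over the 11 libraries and -0.00459 without those 2. Deviations within a group are tied to each other, and permuting them freely makes p too small, so no p is given for them. Lgals3 and Cd68, both known from macrophages, had an r of 0.176 (permutation p = 0.602) and a rho of 0.309 (permutation p = 0.357).

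**Figure D5:**
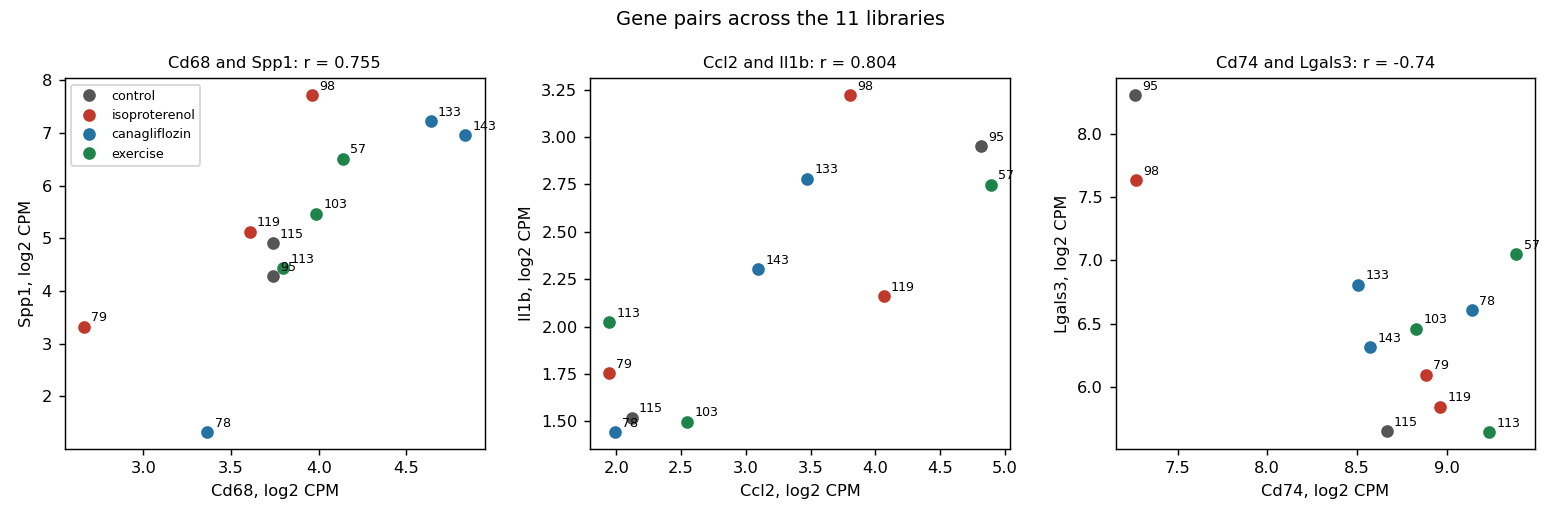
Log2 CPM of 3 pairs of genes in the 11 libraries, coloured by group and labelled with the library number, with Pearson's r in each title. Libraries high in Cd68 are high in Spp1, and those high in Ccl2 are high in Il1b, while the negative r of Cd74 and Lgals3 comes from libraries 95 and 98 at the upper left.

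The tested gene most like each of the 6 over the 11 libraries was taken by the highest Pearson's r of log2 CPM, as a description. For Il1b it was ENSRNOG00000033697, with an r of 0.929, and it stayed the nearest without control library 95, with 0.946. For the other 5 genes the nearest changed when that library was left out. It went from ENSRNOG00000008816 (0.965) to ENSRNOG00000012109 (0.982) for Spp1 and from ENSRNOG00000005094 (0.963) to ENSRNOG00000020867 (0.965) for Cd68. For Cd74 it went from ENSRNOG00000051691 (0.973) to ENSRNOG00000021316 (0.965), for Lgals3 from ENSRNOG00000000108 (0.97) to ENSRNOG00000007136 (0.982), and for Ccl2 from ENSRNOG00000000239 (0.915) to ENSRNOG00000058775 (0.903). None of the 6 genes was the nearest of another. Among all tested genes, Spp1 was nearer to Cd68 than 97.9% were, and Il1b nearer to Ccl2 than 99.6%. Il1b was nearer to Lgals3 than 88.8% were. The member nearest to Cd74 was Cd68, with an r of -0.136, nearer than 38.6% of tested genes.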

How the data were processed

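RNA of 11 libraries in 4 groups was analysed. Raw counts per Ensembl gene ID stand in a table deposited by the authors, per the file headers 1 count column a library. Beside them the deposited table gives FPKM (counts scaled by gene model length and library total), used here only for levels between genes and, through its ratio to the counts, for gene model lengths. CASAVA 1.8 and TopHat2 2.0.6 were used per the submitters' processing notes. The counter, its strand setting, the build and the annotation were not given in the sources used here. Reads shared with overlapping genes cannot therefore be told apart. Columns were matched to libraries by the number in the label, and 0 columns were unused. Symbols of the 6 genes came with the list of genes analysed; 0 identifiers matched the annotation table, so further marker lists were not analysed here.

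Counts were tested with edgeR 4.0.16 (R 4.3.3): TMM factors, genes kept by filterByExpr (14979), a robust quasi-likelihood fit of 4 group means to all 11 libraries, and Benjamini-Hochberg adjustment over all tested genes within each comparison. The standard error is the size of the log2 fold change over the root of the F statistic. Log2 CPM used a prior count of 2. Alternatives were DESeq2 1.42.0 and limma-voom (limma 3.58.1), 2 other scalings, no low-count filter, fits restricted to the groups of a comparison, and omission of each library in turn. Simulated data with known fold changes were used to check the edgeR step. They varied less between libraries than the real data, so they do not tell how well edgeR finds changes here. Permutations used numpy 2.4.6, and figures matplotlib 3.10.9.

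Named genes were the 6 members, whatever their values, and for each the tested gene with the highest Pearson's r. The members, lists and tests were chosen with earlier results of these data known. Depth ranged from 14742164 to 25034831 counts, and the lowest count of any of the 6 genes was 43.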

Additional observations from a re-analysis of the deposited data

How the results depend on the processing

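None of the 6 genes had an adjusted p under 0.05 in any of the comparisons or alternatives run. DESeq2 gave no adjusted p for Ccl2, Il1b, Cd68 and Spp1 with isoproterenol against control. It also gave none for any of the 6 but Cd74 with exercise against control. These could not be judged at the threshold, and their unadjusted DESeq2 p was 0.154 (Lgals3, exercise against control) or more. Of 36 fold changes, 23 changed sign when 1 library was left out: 9 without control library 95 and 8 without isoproterenol library 98.

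Genes called over the whole table were 0 in every comparison with edgeR on all libraries, under each scaling, filter and choice of groups run, with 152 to 2306 genes at an unadjusted p under 0.05 over these fits (222 to 2162 as reported), and 0 with limma-voom. DESeq2 called 14 for isoproterenol against control, 2 for canagliflozin against isoproterenol, 1 for exercise against canagliflozin, and, against control, 240 with canagliflozin and 17 with exercise. With 1 library left out edgeR called 0 to 2688, 0 to 3900 and 0 to 2766 genes for isoproterenol, canagliflozin and exercise against control, the upper values without control library 115, when the lone library 95 is assumed to vary like the other groups.

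Library totals in place of TMM reversed these log2 fold changes: for isoproterenol against control Ccl2 (0.27), Cd68 (0.19) and Lgals3 (0.03), for canagliflozin against control Il1b (0.61), and for exercise against control Ccl2 (0.34) and Il1b (0.34). They also reversed the correlation of Cd68 and Cd74 (0.278). limma-voom reversed Ccl2 for isoproterenol against control (0.09), Spp1 (-0.26) and Lgals3 (0.05) for canagliflozin against isoproterenol, Ccl2 (-0.19) and Spp1 (0.10) for exercise against isoproterenol, Spp1 (0.36) for exercise against canagliflozin, and Il1b against control with canagliflozin (0.13) and exercise (0.00). The cause was not tested.

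Ranges over the 11 fits with 1 library left out follow, for fold changes that changed sign. For isoproterenol against control they were -1.28 to 1.43 for Ccl2, -0.43 to 1.03 for Il1b, -0.53 to 0.06 for Cd68, -0.11 to 1.31 for Cd74, -0.14 to 2.31 for Spp1 and -1.55 to 1.12 for Lgals3. For canagliflozin against isoproterenol they were -0.59 to 0.31 for Il1b, -0.15 to 0.45 for Cd74, -0.42 to 2.04 for Spp1 and -0.47 to 0.62 for Lgals3. For exercise against isoproterenol they were -1.27 to 0.63 for Ccl2, -0.75 to 0.22 for Il1b, -1.38 to 1.23 for Spp1 and -0.65 to 0.52 for Lgals3. For exercise against canagliflozin they were -0.72 to 1.18 for Ccl2, -0.50 to 0.25 for Il1b and -0.48 to 0.19 for Lgals3. Against control they were -1.83 to 0.88 for Ccl2, -0.67 to 0.78 for Il1b and -1.70 to 0.94 for Lgals3 with canagliflozin, and -1.76 to 1.64, -0.77 to 0.70 and -1.80 to 0.86 with exercise.

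No paired analysis was possible because the groups share no library numbers. Depth left no member near the count floor.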
